A study of Mus musculus with 15 samples.

Results

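The reticulons are membrane proteins of the endoplasmic reticulum (ER), encoded in the mouse by Rtn1, Rtn2, Rtn3 and Rtn4. They were followed in total RNA of the cortex, 1 month after the mice went through high-frequency head impact, abbreviated HF-HI, or Sham treatment. HF-HI is a model in which anesthetized mice receive repeated closed-head impacts on consecutive days, and Sham mice do not receive the impacts. All animals were male C57BL/6 mice (C57Bl/6J in the study's methods), labelled 12 weeks of age, with 7 Sham and 8 HF-HI libraries of dissected cortex. The members were chosen by gene name: every deposited transcript that GENCODE M21 assigns to these 4 genes was taken, which gave 11 of the 10370 transcripts listed. GENCODE M21 holds 24 transcripts of the 4 genes. The other 13 (7 protein coding, 4 processed transcripts and 2 with a retained intron) were not analysed here. The deposited values stop at a mean of 108 normalized counts, and the lowest member, Rtn1-204, lay just above it at 123. The family was chosen with differences between the groups in these libraries already known. Its HF-HI minus Sham values are therefore given as a description, and the calls among its members are no independent evidence of a difference.

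All reticulons end in a conserved domain with a pair of hydrophobic hairpins, which wedges into the ER membrane and bends it into tubules. Upstream of this domain the genes differ, and alternative promoters and exons give each a short and a long form. Rtn4 encodes the Nogo proteins, and its longest form, Nogo-A, is known as an inhibitor of neurite outgrowth that acts through the Nogo receptor Rtn4r. Rtn3 is abundant in neurons, where its long forms act as receptors for the autophagy of ER tubules, and Rtn3 and Rtn4 proteins bind the beta-secretase Bace1. Rtn1 is a largely neuronal gene, and Rtn2 is known from an inherited form of spastic paraplegia.

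The listed isoforms of Rtn3 differ by a small cassette exon and a long exon, and the sequences that set them apart are shown first. Rtn3 lies on chr19:7425901-7483281 of GRCm38 (mm10), on the minus strand. Rtn3-201 (ENSMUST00000025667) joins exon 1 to a cassette exon of 57 bases, chr19:7467811-7467867, and then to the shared coding exons. Its reading frame holds 256 codons. Rtn3-202 (ENSMUST00000065304) inserts a long exon after the cassette and holds 964 codons. Rtn3-204 (ENSMUST00000088171) has the long exon but skips the cassette, which leaves 945 codons, a loss of 19 codons in frame. The junctions below are from the GENCODE M21 transcripts, 25 bases on each side, with the downstream exon in capitals. They are shown because Rtn3-204 shares every base with another listed transcript, and only its junction from exon 1 to the long exon is its own.
Rtn3-204, exon 1 to long exon: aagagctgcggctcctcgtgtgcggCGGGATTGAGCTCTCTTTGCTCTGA
Rtn3-202, exon 1 to cassette exon: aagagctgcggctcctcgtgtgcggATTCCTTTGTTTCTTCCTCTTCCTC
Rtn3-202, cassette exon to long exon: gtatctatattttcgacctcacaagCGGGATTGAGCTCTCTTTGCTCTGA
Rtn3-201, cassette exon to shared exon: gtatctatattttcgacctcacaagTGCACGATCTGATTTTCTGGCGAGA

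**Figure D1:**
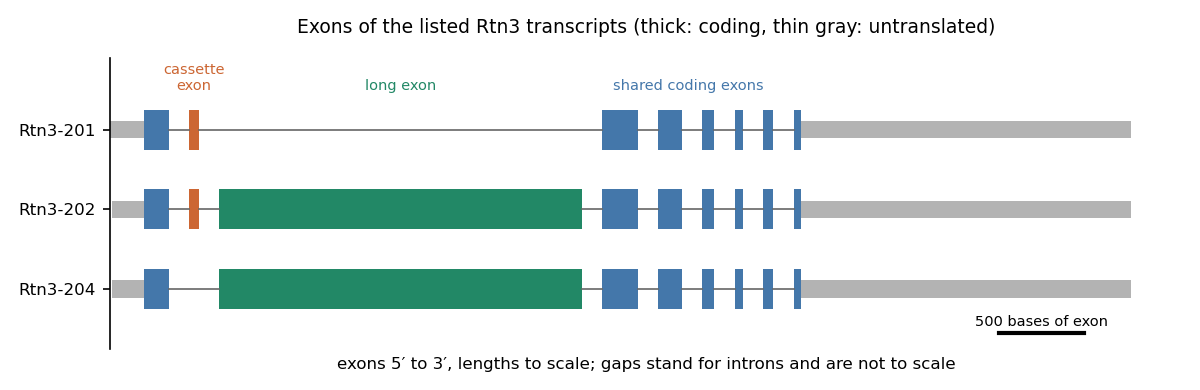
Exons of the 3 listed Rtn3 transcripts from 5′ to 3′, with exon lengths to scale, introns not to scale, coding parts thick and untranslated parts thin and gray. Rtn3-202 holds the cassette exon of 57 bases and the long exon, Rtn3-201 lacks the long exon, and Rtn3-204 lacks the cassette exon.

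The cassette exon has a counterpart of the same length at the same place in Rtn4, on chr11:29705535-29705591. The exons of the 2 genes are identical at 25 of 57 positions (43.9%), which are in capitals below.
Rtn3 cassette exon: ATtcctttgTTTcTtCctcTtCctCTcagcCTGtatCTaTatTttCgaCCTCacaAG
Rtn4 cassette exon: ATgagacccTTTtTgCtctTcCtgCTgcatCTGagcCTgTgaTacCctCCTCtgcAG

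The 5 exons that follow, of 208, 139, 70, 47 and 59 bases, had the same lengths in all 4 genes and make up most of the reticulon domain. Over these 523 bases Rtn1 and Rtn4 were the most alike, with 65.2% identical positions, followed by Rtn1 and Rtn3 with 64.4%. Rtn2 stood furthest from the others, at 59.7% with Rtn1, 52.2% with Rtn3 and 51.8% with Rtn4.

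In Rtn4, on the plus strand of chromosome 11, the listed isoforms differ by where they start, as do Rtn1-201, Rtn1-202 and Rtn1-205 of Rtn1, on the minus strand of chromosome 12. Rtn4-205 (ENSMUST00000102843, chr11:29692947-29742916) codes for Nogo-A, with 1162 codons. Rtn4-203 (ENSMUST00000102841, 1046 codons) has the same long exon and a different first exon. Rtn4-201 (ENSMUST00000060992, 199 codons) is the short Nogo-C form. Rtn1-202 (ENSMUST00000078505, chr12:72211752-72409054) is the long form with 780 codons, and Rtn1-201 (ENSMUST00000021497, 208 codons) is the short one. Rtn1-205 (ENSMUST00000150156) and Rtn1-204 (ENSMUST00000144181) are annotated as processed transcripts with no reading frame. Rtn1-204 has 2 exons, begins with the first exon of Rtn1-201 and ends in an extended form of the next one, so it shares the junction printed for Rtn1-201. Rtn2 was represented by Rtn2-201 (ENSMUST00000032559, chr7:19282624-19296160, 471 codons). The junctions of the long Rtn4 forms, and of the Rtn1 starts whose levels varied most between libraries, are given here with the downstream exon in capitals.
Rtn4-205, its first exon to cassette exon: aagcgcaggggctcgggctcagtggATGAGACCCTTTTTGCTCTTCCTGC
Rtn4-203, its first exon to cassette exon: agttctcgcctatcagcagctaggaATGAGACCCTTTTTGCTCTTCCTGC
Rtn1-201, its first exon to shared exon: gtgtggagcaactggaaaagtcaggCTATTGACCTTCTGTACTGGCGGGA
Rtn1-205, its first exon to shared exon: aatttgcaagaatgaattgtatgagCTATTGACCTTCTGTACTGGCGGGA

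Because the isoforms share most of their sequence, the counts below are the quantifier's division of shared reads. Rtn3-201 had 9 bases found in no other listed transcript, Rtn3-202 and Rtn3-204 had 0, Rtn1-201 had 38, Rtn1-205 had 79 and Rtn4-205 had 747. The sum of counts over a gene's listed transcripts does not depend on how reads were divided among them. Reads given to the 13 other transcripts are not in this sum.

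Normalized counts are reads divided by a size factor, the relative depth of a library. The size factor was between 0.818 and 1.47 in Sham libraries and between 0.501 and 1.22 in HF-HI libraries, which tended to be shallower, and reads in the listed transcripts ranged from 3496103 to 10582858. HF-HI replicate 2 stood apart on the first principal component (-12.6, against -0.721 to 3.35 in the others), which held 14.3% of the variance. Sham replicate 5 was at the other end, with the highest value of 3.35. Markers of neurons, oligodendrocytes and astrocytes were all listed, as 14 of 14, 15 of 15 and 10 of 10 genes. Ttr, a marker of the choroid plexus, had 6589 to 8663 normalized counts in Sham replicates 1 and 2 and HF-HI replicates 2 and 5, and no more than 176 in the other 11 libraries. Striatal markers were also present, with a summed level of 10511 to 15429 normalized counts in Sham and 7777 to 15047 in HF-HI. Sham replicate 5 was the lowest Sham library for them. No skeletal muscle marker was listed (0 of 8).

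Per kilobase of transcript, and in order of level in Sham, the listed isoforms summed to 2460 ± 154 normalized counts for Rtn1, 2089 ± 110 for Rtn4, 1709 ± 94.6 for Rtn3 and 219 ± 24.6 for Rtn2 (SD over 7 libraries). In HF-HI the same sums were 2502 ± 344, 2081 ± 83.1, 1665 ± 61.8 and 229 ± 27.9 (SD over 8 libraries), in the same order. Each transcript was divided by its own length before summing, so these sums depend on how reads were divided among isoforms. That of Rtn1 in Sham included 709 for Rtn1-205 and 215 for Rtn1-204, both processed transcripts. In counts not divided by length, Rtn3 (5999) and Rtn4 (5470) stood above Rtn1 (4234) in Sham. Ranges of Rtn1 and Rtn4 per kilobase did not overlap in Sham (2283 to 2682 against 1897 to 2262). In HF-HI those of Rtn1 reached from 1853 to 2922 and enclosed those of Rtn4. Rtn2 was far below the others in every library. By isoform, the short forms led in Sham, with 1375 ± 109 normalized counts per kilobase for Rtn4-201, 1211 ± 78.2 for Rtn3-201 and 1176 ± 170 for Rtn1-201. Rtn3-204 was the lowest of the 11 on this scale in Sham, at 139 ± 39.2, below Rtn4-205 at 236 ± 44.9. In HF-HI it reached 226 ± 38.4 and Rtn4-205 stood at 175 ± 56.6, with overlapping ranges (176 to 273 against 87.4 to 272). In bulk tissue, fewer cells of a type and less RNA per cell cannot be told apart.

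The Rtn1 sum was 4234 ± 196 normalized counts for Sham and 4216 ± 370 for HF-HI, a log2 difference of -0.01 with a 95% interval of -0.12 to 0.10. Rtn3 had 5999 ± 313 and 5975 ± 226, a log2 difference of -0.00 (95% interval -0.08 to 0.07). For Rtn4 the sums were 5470 ± 221 and 5383 ± 135, a log2 difference of -0.02 (95% interval -0.08 to 0.04). Rtn2 had 437 ± 48.9 and 456 ± 55.5, a log2 difference of 0.06 (95% interval -0.11 to 0.22). In all 4 genes the libraries of the groups overlapped and the interval of the difference spanned 0. In limma, 0 of 4 gene sums were called at an unadjusted p under 0.05, where 9.94% of 7740 genes were, and 0 passed an adjusted p of 0.1. Without Sham replicate 5 these counts were also 0, where 10.4% and 0.155% of genes were called.

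**Figure D2:**
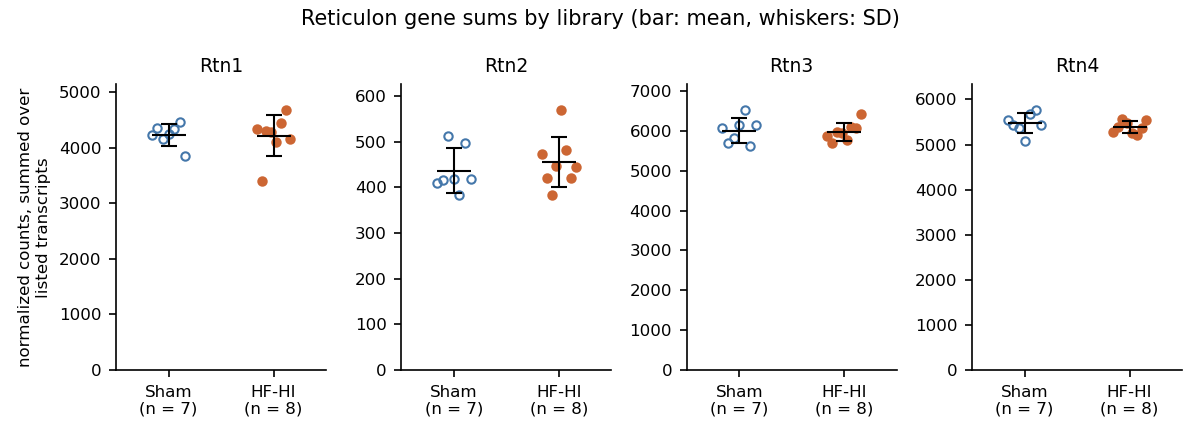
Normalized counts summed over the listed transcripts of each reticulon gene, with a point per library for Sham (open, n = 7) and HF-HI (filled, n = 8), a bar at the mean and whiskers of 1 SD. The groups overlap in all 4 genes, and the low HF-HI point of Rtn1, at 3407, is HF-HI replicate 2.

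Within the Rtn3 total, the isoforms differed in opposite directions. Rtn3-204, the long form without the cassette, had a median of 643 normalized counts among Sham libraries (range 552 to 1112) and of 1136 among HF-HI libraries (range 873 to 1354). Every HF-HI library exceeded the median of Sham, and 4 of 8 lay above the highest Sham library. Sham replicate 5, at 1112, was the single Sham library within the HF-HI range, and the others reached no higher than 700.

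The mean of Rtn3-204 was 689 ± 194 in Sham and 1121 ± 190 in HF-HI, a ratio of 1.63. On the deposited variance-stabilized scale (VSD) the difference was 0.32 ± 0.06 (SE), with a 95% interval of 0.18 to 0.45. The VSD compresses changes, since at 1000 normalized counts a doubling moves it by 0.53. Ranked by p, Rtn3-204 stood at place 8 of 10370 transcripts, which only describes it, as the family was chosen with such differences known. It was called at an unadjusted p under 0.05, as were 8.83% of all transcripts, and not at an adjusted p of 0.1.

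The listed forms that keep the cassette were lower. Rtn3-201, the short and most abundant form, had a Sham median of 3602 (range 3258 to 3804) and an HF-HI median of 3310 (range 2833 to 3517). Every HF-HI library was under the median of Sham, and 3 were under the lowest Sham library. Its means were 3508 ± 227 and 3231 ± 232, a VSD difference of -0.08 ± 0.03 (SE). Rtn3-202, the long form with the cassette, had a Sham median of 1755 (range 1594 to 1987) and an HF-HI median of 1599 (range 1352 to 1901). Its means were 1802 ± 132 and 1623 ± 183, a VSD difference of -0.09 ± 0.04 (SE). The HF-HI libraries overlapped the Sham range in both, although 4 of 8 lay below the lowest Sham value of Rtn3-202. With the log2 size factor in the model neither was called, and the VSD difference was -0.0081 for Rtn3-201 and -0.09 for Rtn3-202. When libraries were left out 1 at a time, the call of Rtn3-201 was kept in 8 of 15 fits and that of Rtn3-202 in 7 of 15.

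As a share of Rtn3 counts, which needs no size factor, Rtn3-204 held 11.4 ± 2.70% in Sham and 18.8 ± 3.17% in HF-HI, a difference of 7.35 percentage points. Rtn3-201 held 58.5 ± 1.35% and 54.1 ± 3.98%, and 6 of 8 HF-HI libraries lay below every Sham library. Rtn3-202 held 30.1 ± 2.84% and 27.1 ± 2.34%. Listed isoforms that include the cassette exon, all but Rtn3-204, held 88.6 ± 2.70% of Rtn3 counts in Sham and 81.2 ± 3.17% in HF-HI. Listed isoforms with the long exon, all but Rtn3-201, held 41.5 ± 1.35% and 45.9 ± 3.98%. Both restate the shares above as what remains of the total over the 3 listed isoforms. GENCODE M21 has 5 Rtn3 transcripts, and those not listed are in none of these shares. The shares are therefore no measure of cassette use over all of Rtn3. Among the listed isoforms with the long exon alone, Rtn3-204 took 27.5 ± 6.44% and 40.7 ± 4.59%.

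**Figure D3:**
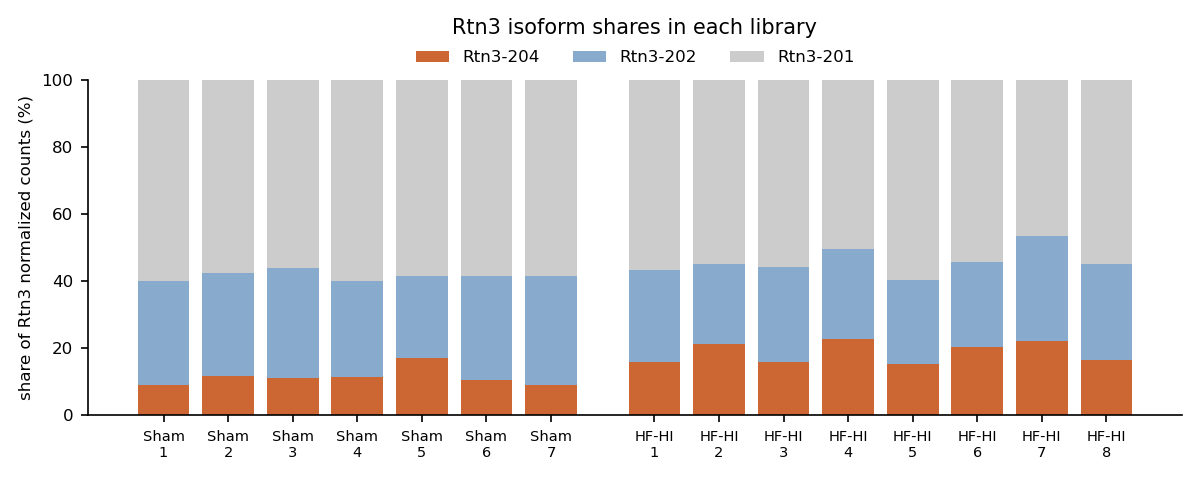
Share of Rtn3 normalized counts (%) held by Rtn3-204 (bottom), Rtn3-202 (middle) and Rtn3-201 (top) in each of the 7 Sham and 8 HF-HI libraries. The Rtn3-204 part lies between 9.11% and 11.7% in the Sham libraries other than replicate 5, at 17.1% in Sham replicate 5, and between 15.1% and 22.8% in HF-HI.

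Without Sham replicate 5 the groups did not overlap for Rtn3-204, with 552 to 700 normalized counts in the other 6 Sham libraries against 873 to 1354. Of all transcripts, 0.164% were likewise higher in HF-HI without overlap. The VSD difference became 0.37. Rtn3-204 then passed the limma adjusted threshold of 0.1, as the only 1 of 10370 transcripts (0.00964%). Its share passed as well, as the only 1 of 4140 shares (0.0242%). Sham replicate 5 was the Sham library with the most Rtn3-204, so its removal had to widen the difference, and these values are given as a description.

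Within HF-HI the share moved with depth. The 4 shallowest HF-HI libraries (size factors 0.501 to 0.813) had shares of 20.3% to 22.8%, and the other 4 (0.984 to 1.22) had 15.1% to 16.6%. In Sham the shallowest library, replicate 3, had 11.1%, and the 6 deeper ones had a median of 10.95%. The part of depth in the difference between the groups was not tested beyond the model with the size factor. With the log2 size factor in the model, the VSD difference was 0.24 in place of 0.32. Rtn3-204 was called at the unadjusted threshold in that model, as it was in the 15 fits that each left out 1 library.

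**Figure D4:**
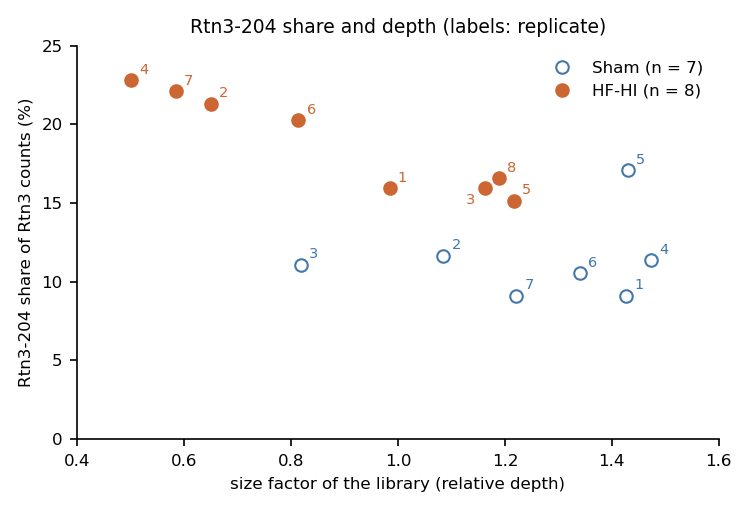
Rtn3-204 share of Rtn3 counts (%) against the size factor of the library, with open points for Sham (n = 7), filled points for HF-HI (n = 8) and replicate numbers beside them. The 4 HF-HI libraries of lowest size factor lie at 20.3% or above, and Sham replicate 5 is the only Sham library above 11.7%.

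Among Rtn4 isoforms, the Nogo-A transcript was lower after HF-HI. Rtn4-205 had a Sham median of 1052 normalized counts (range 871 to 1387) and an HF-HI median of 798 (range 403 to 1257). In 7 of 8 HF-HI libraries it was under the median of Sham, and in 5 it was under the lowest Sham library, while HF-HI replicate 5, at 1257, lay within the upper Sham range. Its means were 1089 ± 207 and 810 ± 262, a VSD difference of -0.21 ± 0.08 (SE). Its share of Rtn4 was 19.9 ± 3.88% in Sham and 15.1 ± 5.15% in HF-HI, with a logit difference whose 95% interval of -1.09 to 0.01 on the log2 scale reached past 0.

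The other long form, Rtn4-203, had 1944 ± 283 and 2122 ± 350 normalized counts, a VSD difference of 0.07 ± 0.07 (SE). Together the 2 long forms summed to 3033 ± 134 in Sham and 2932 ± 177 in HF-HI. The short Nogo-C form, Rtn4-201, had 2437 ± 193 and 2451 ± 186, a VSD difference of 0.01 ± 0.04 (SE). As shares of Rtn4, Rtn4-203 held 35.5 ± 4.95% and 39.3 ± 5.89%, and Rtn4-201 held 44.5 ± 2.33% and 45.5 ± 3.16%. The groups overlapped in both.

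The shallowest library, HF-HI replicate 4, had its lowest count (403) and its lowest share of Rtn4 (7.36%). HF-HI libraries with a size factor under 1 had a median share of 13.9%, and those above 1 had 15.2%, with overlapping ranges. With the size factor in the model the VSD difference was -0.10 and Rtn4-205 was not called. The 3 libraries with the highest shares, Sham replicates 1 and 2 and HF-HI replicate 5 (24.2%, 25.5% and 23.9%), were among the 4 of high Ttr, and HF-HI replicate 2, the other one, had 13.9%. The same 3 had the lowest counts of Rtn4-203, at 1644, 1522 and 1610. Rtn4-205 was not called without Sham replicate 1 or without Sham replicate 2. Without all 4 libraries of high Ttr it was called, at -0.18. The part of the choroid plexus in these values was not tested.

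Rtn1 isoforms varied mostly between libraries of the same group. The short form Rtn1-201 had a Sham median of 1777 (range 1334 to 2129) and an HF-HI median of 1535 (range 1213 to 1917), with means of 1816 ± 263 and 1554 ± 255. The VSD difference was -0.13 ± 0.06 (SE), with a 95% interval of -0.26 to 0.00. Its lowest Sham library was replicate 5, at 1334, and without it the difference of -0.17 was called at the unadjusted threshold, as were 8.94% of transcripts. Removal of the lowest Sham library had to widen this difference, so the call is given as a description. Over the 15 libraries left out singly, Rtn1-201 was called 4 times.

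Rtn1-205, the processed transcript that shares the exons downstream of Rtn1-201, had a Sham median of 909 (range 622 to 1570) and an HF-HI median of 1287 (range 12.3 to 1630). HF-HI replicate 2 had 8 reads of it, and the next lowest HF-HI library had 934 normalized counts. Sham replicate 5 had the most of any Sham library, at 1570. The VSD difference was 0.01 ± 0.20 (SE). Without HF-HI replicate 2 it was 0.20, and Rtn1-205 was called at the unadjusted threshold. With all libraries 8.83% of all transcripts were called. HF-HI replicate 2 had the lowest count, so its removal had to raise the difference, and this call is given as a description. Rtn1-201 and Rtn1-205 together summed to 2829 ± 181 in Sham and 2714 ± 341 in HF-HI. The long form Rtn1-202 had 1305 ± 103 and 1358 ± 181, a VSD difference of 0.03 ± 0.04 (SE). Rtn1-204 had 100 ± 39.8 and 144 ± 80.5, a VSD difference of 0.08 ± 0.06 (SE), and all 4 transcripts overlapped between the groups. As shares of Rtn1, Rtn1-201 held 42.9 ± 6.12% in Sham and 37.6 ± 9.70% in HF-HI, and Rtn1-202 held 30.9 ± 2.37% and 32.4 ± 4.92%. Rtn1-205 held 23.8 ± 6.62% and 26.7 ± 12.0%. Its fitted logit difference, -0.35 ± 0.89 (SE), had the opposite sign to these means.

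**Figure D5:**
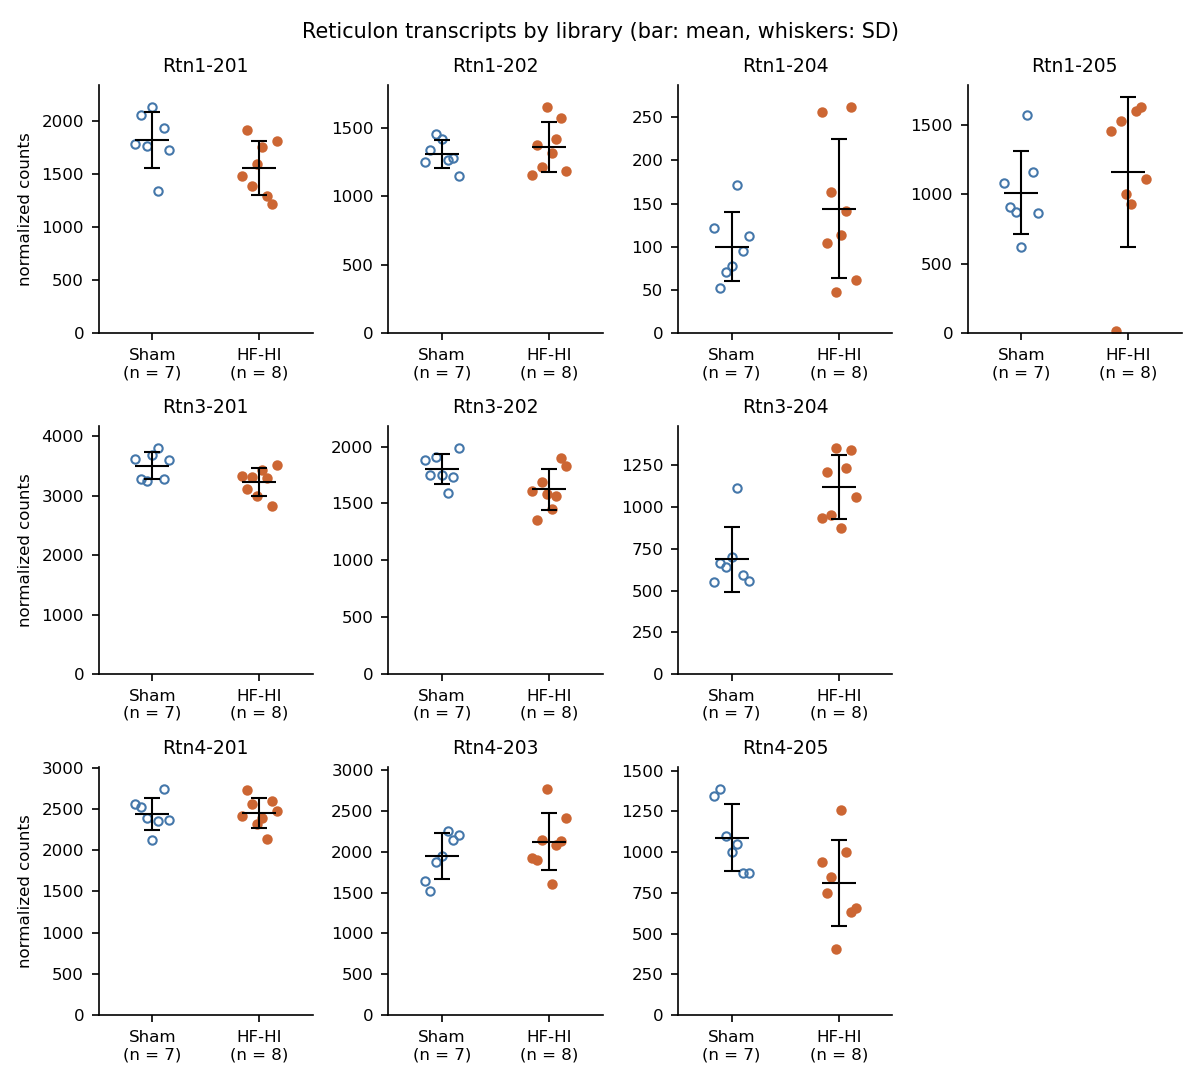
Normalized counts of the 10 listed transcripts of Rtn1, Rtn3 and Rtn4, with a point per library for Sham (open, n = 7) and HF-HI (filled, n = 8), a bar at the mean and whiskers of 1 SD. Rtn3-204 is the transcript with 4 HF-HI libraries above every Sham library, and the HF-HI point near 0 for Rtn1-205 is HF-HI replicate 2.

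Rtn2-201 is the only listed Rtn2 transcript, so its counts are those of the gene sum. Its VSD difference was 0.02 ± 0.03 (SE).

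Counted together, 4 of the 11 reticulon transcripts had an unadjusted p under 0.05 in limma, where 8.83% of 10370 transcripts did. Rtn3-204 was the 1 higher in HF-HI (4.94% of all transcripts), and Rtn3-201, Rtn3-202 and Rtn4-205 were the 3 lower (3.90%). None passed the adjusted threshold of 0.1 (0 of 11, as 0 of 10370). Of the 10 isoform shares, 2 were called, where 6.18% of 4140 shares were. That of Rtn3-204 was higher (3.33% of all shares) and that of Rtn3-201 lower (2.85%), and none passed the adjusted threshold. With the size factor in the model, the share of Rtn3-201 and the 3 lower transcripts were no longer called, which left Rtn3-204. Isoforms of 1 gene compete for the same reads and are not independent of each other. Across the 1639 genes with several listed transcripts, 161 had a share called, and in 91 of these shares were called in both directions, as in Rtn3. In a gene with only 2 listed transcripts the logits of the shares are opposites. Calls in both directions there come from the measure itself.

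The genes with which reticulons act were taken as 3 lists, whose counts are set against the 8.83% of all transcripts called. Of 30 listed transcripts of Nogo receptor signaling genes, 0 were called at the unadjusted threshold in limma, with a median log2 ratio of -0.00, against -0.00 over all transcripts. With the size factor in the model 1 of the 30 was called, where 533 of 10370 transcripts were. It was Arhgdia-202, lower in HF-HI (VSD difference -0.08) and named here after its value was seen. Arhgdia-201, of the same gene, had a VSD difference of 0.06 in that model and was not called. Among 26 transcripts of ER-shaping and ER-phagy proteins, 1 was higher and 1 lower, with a median log2 ratio of -0.02. Rrbp1-201, the ribosome-binding protein of ER sheets, had 152 ± 25.7 normalized counts in the Sham group and 186 ± 30.6 in the other (limma unadjusted p = 0.0347, adjusted p = 0.533). Tmem33-202 is a transcript of Tmem33, which encodes an ER membrane protein that interacts with reticulons. It had 178 ± 28.8 and 120 ± 45.4 (limma unadjusted p = 0.00925, adjusted p = 0.408). The more abundant transcript of this gene, Tmem33-201, had 1163 ± 89.2 and 1114 ± 103 and was not called. Among 13 transcripts of amyloid precursor processing, 1 was higher. It was Adam10-201, the alpha-secretase, with 742 ± 42.0 and 793 ± 42.8 (limma unadjusted p = 0.0465, adjusted p = 0.561). The counts of 2 of 26 and 1 of 13 were near the share of all transcripts. None of these 3 calls was kept with the size factor in the model.

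Markers of the cells that express reticulons gave 0 of 26 oligodendrocyte transcripts called, and 3 of 33 neuronal ones (2 higher, 1 lower), near the 8.83% of all transcripts. Their median log2 ratios were -0.00 and 0.04. Of 14 astrocyte transcripts 1 was lower, as was 1 of 7 microglial ones, and 0 of 7 endothelial transcripts were called. Of 19 striatal transcripts 3 were lower, with a median log2 ratio of -0.16. Without Sham replicate 5 these were 6 of 19, with a median of -0.21, and with the size factor in the model 1 of 19. Choroid plexus transcripts gave 0 of 5. They came from Ttr and Enpp2, the 2 of 10 choroid plexus markers listed, and Ttr was high in libraries of both groups. For microglia 7 of 10 marker genes were listed, and for endothelium 6 of 10. The part of these cell types in the reticulon values was not tested.

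Across the 15 libraries the genes whose summed level followed each reticulon most closely were found among 3285 genes with a mean of at least 500 normalized counts. For Rtn1 they were Basp1 (Pearson r = 0.92), Mif (0.85) and Camk2n1 (0.83). For Rtn4 they were Dlat (r = 0.88), Megf9 (0.86) and Micu3 (0.84). Rtn3 was followed by Ash1l (r = 0.81), Xbp1 (0.79) and Dclk1 (0.78), and the values of Xbp1 and Dclk1 were 0.69 without Sham replicate 5. Rtn2 had the weakest companions over the 15 libraries, Fnip1, Hras and Anks1b, at 0.62 to 0.63. Without Sham replicate 5 these had 0.58, 0.72 and 0.62, and Hras then stood above Xbp1 and Dclk1. Correlations without HF-HI replicate 2, the lowest library of the Rtn1 sum, were not computed. The genes share libraries and size factors, and they are the highest of many.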

How the data were processed

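Per the study's methods, the authors depleted ribosomal RNA, prepared strand-specific libraries, aligned the reads to mm10 with STAR, estimated counts per transcript with eXpress and normalized them with DESeq2. The authors deposited variance-stabilized values on a log2 scale, for 10370 transcripts in 15 libraries. The annotation release is not given in the sources used here. Inverting the transformation (a count of 0 has a VSD of 9.81) gave whole multiples of a step per library for 100% of values, within 0.1 reads, and so size factors, reads and normalized counts.

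Transcripts were matched to GENCODE M21, which gave 10241 entries. The limma 3.58.1 test (R 4.3.3, group as the only term, eBayes with trend, two-sided) was fitted on VSD, on log2 gene sums with a pseudocount of 1, and on log2 logits of isoform shares with an offset of 0.5 reads. P-values were adjusted with Benjamini-Hochberg over all features at 0.1. Scripts were tested on simulated data. The members, gene lists and rules were chosen with earlier results of these data known. Named genes were all members, transcripts of the 3 pathway lists at an unadjusted p under 0.05, and the 3 closest genes to each gene sum. Nothing in the labels ties libraries to litters or batches. The limma p-values set a group difference against the spread between these libraries, moderated over all features. Counting error covers reads only, and pairs of libraries differed by more than sampling noise.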

Additional observations from a re-analysis of the deposited data

Results flagged for a closer look

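Of 48 groups of values (the gene sums, transcripts and shares in each group), 6 held a library far from its neighbors by Dixon's gap ratio. Chance gives about 1 in 20 for separate groups. Sums and shares are made from the same transcript counts, so the 6 are not separate events. Sham replicate 5 accounted for 3 of them. It had 1112 normalized counts of Rtn3-204 where the next Sham library had 700, and an Rtn3-204 share of 17.1% where the next had 11.7%. Its Rtn1-201 share was 30.7%, and the next lowest Sham share was 42.0%. HF-HI replicate 2 accounted for the other 3. It had 12.3 normalized counts of Rtn1-205, 0.361% of Rtn1, where the next HF-HI library had 934, or 22.7%. Its Rtn1 sum was 3407, against 4111 in the next library.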

How the results depend on the processing

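Rtn3-204 was higher in HF-HI and called at an unadjusted p under 0.05 in the 28 alternatives for transcripts and the 23 for shares. For the transcript the limma adjusted p was 0.206 and ranged from 0.0283 (without Sham replicate 5) to 0.819 (size factor in the model). Without Sham replicate 5 and with the size factor the transcript had 0.0655, chosen after seeing the data. For the share the limma adjusted p was 0.274 and ranged from 0.0747 (without Sham replicate 5) to 0.968. The logit difference of the share, 0.85, fell to 0.63 at its lowest. Of the 11 transcripts 4 were called at p under 0.05, beside 916 of all transcripts. This became 1 beside 533 with the size factor, 2 beside 656 without HF-HI replicates 2, 4 and 7 together, and 2 beside 575 without Sham replicate 5 and with the size factor. With single libraries left out it was 1 to 5 beside 748 to 987 (1 beside 773 without Sham replicate 1, 2 beside 878 without Sham replicate 7, 2 also without HF-HI replicate 4). Without the 4 libraries of high Ttr together 4 were called beside 677, namely Rtn3-204, Rtn4-205, Rtn1-201 and Rtn1-205, and Rtn3-201 and Rtn3-202 were not. Leaving out these sets of libraries was chosen after seeing the data. The count at the adjusted threshold, 0, became 1 without Sham replicate 5, with and without the size factor, and 0 to 1 over single libraries. For shares, 2 beside 256 of all shares became 1 with the size factor (beside 191), with the replicate block (beside 267) and without HF-HI replicates 2, 4 and 7 (beside 192), and 1 to 3 over single libraries (1 when Sham replicate 1, Sham replicate 4 or HF-HI replicate 4 was left out). The adjusted count for shares ran from 0 to 1, with the 1 again without Sham replicate 5. None of the 3 calls in the pathway lists was kept with the size factor, where the 1 called was Arhgdia-202. The causes were not tested.

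Differences near 0, or small beside their SE, changed sign. That of the Rtn1-205 share was -0.35 ± 0.89 (SE) on the logit scale with all libraries. Without the 4 libraries of high Ttr, Rtn2-201 was -0.0032, the sums of Rtn1, Rtn2 and Rtn3 were 0.054, -0.0074 and 0.0043, and the shares of Rtn1-202 and Rtn1-205 were -0.0046 and 0.59. Rtn1-205 was -0.42 and -0.33 with log2 counts at pseudocounts of 1 and 10, -0.29 with voom, and -0.040 to 0.20 over single libraries. Rtn4-201 was -0.0053 with library weights, -0.00043 with the size factor, -0.0034 with it and without Sham replicate 5, -0.016 without HF-HI replicates 2, 4 and 7, and -0.015 to 0.024 over single libraries. Rtn1-202 was -0.056 and -0.055 with the size factor, with and without Sham replicate 5, and -0.029 without HF-HI replicates 2, 4 and 7. The Rtn3 sum was 0.0024 with quantile normalization, 0.019 and 0.032 with the size factor, with and without Sham replicate 5, 0.0063 without the 3 HF-HI libraries, and -0.020 to 0.015 over single libraries. The Rtn1 sum was 0.0055 with library weights, 0.0023 with the size factor and without Sham replicate 5, 0.014 without the 3 HF-HI libraries, and -0.033 to 0.033 over single libraries. The Rtn1-202 share was -0.15 and -0.16 with the size factor, with and without Sham replicate 5, and -0.10 without the 3 HF-HI libraries. The Rtn1-205 share was 0.30 and 0.37 with the size factor, with and without Sham replicate 5, 2.83 percentage points on the linear scale, 0.54 without the 3 HF-HI libraries, and -0.52 to 0.50 over single libraries.

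On VSD values less the mean of their group for each transcript, same-numbered Sham and HF-HI libraries correlated at -0.138 to 0.0905 over 7 numbers. The numbers were therefore not taken to pair them. Only 1 Sham and 2 HF-HI libraries correlated best with their own number. With the replicate block, the Rtn3-204 difference was 0.32 (limma adjusted p = 0.404) and that of its share 0.88 (adjusted p = 0.596).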
